A study of Rattus norvegicus with 6 samples.

Results

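The pyruvate dehydrogenase complex and the enzymes that switch it were followed in diaphragm muscle of diabetic and normal rats. The genes considered were the kinases Pdk1, Pdk2 and Pdk4, the phosphatases Pdp1 and Pdp2, the E1 subunits Pdha1 and Pdhb, the E2 subunit Dlat, the E3 subunit Dld and the E3-binding protein Pdhx. Every probe set (the group of short probes on the array that reads 1 transcript) annotated to exactly 1 of these 10 genes was taken. This gave 12 probe sets for 9 genes, of 15923 probe sets and 10411 genes on the array. Dlat was not analysed here. A probe set was tested only if its mean signal over the 6 arrays was above 105.8, the 40th percentile of all probe sets other than controls. Of the 12 probe sets 11 passed this filter, and the one that did not was the dimmer of 2 for Pdk2.

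The diabetic group was 3 male Wistar rats given a single intraperitoneal dose of streptozotocin, 60 mg/kg in citrate buffer, at 8 weeks of age, and the normal group was 3 male Wistar rats of the same age given the buffer only. Muscle was removed 4 weeks later, at 12 weeks of age, after a night without food in both groups, and no rat received insulin or another glucose-lowering drug. RNA of the left costal hemidiaphragm of each rat was hybridized to its own Affymetrix rat expression array, and the values are MAS 5.0 signals, linear intensities scaled by array. Streptozotocin kills pancreatic beta cells and can act on other organs, so effects of the agent and of insulin lack cannot be told apart with these groups.

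The median signal of an array was between 167.6 and 180.8. Diabetic replicate 3 stood apart in the spiked bacterial transcripts added to each sample, with a median level of 1.96 where the geometric mean over all arrays was taken as the unit, against 0.884 or less on the other diabetic arrays and 0.889 or less on the normal arrays. All 12 skeletal muscle markers were above the filter, and all 4 liver markers were below it. The summed signal of the muscle markers was 169699 to 236467 in diabetic and 218430 to 244932 in normal diaphragm. Of these markers 3 fell, namely Myh4 (a fast myosin heavy chain), Pvalb (the calcium buffer of fast fibers) and Mb (myoglobin), and the call of Mb was kept only where no array or diabetic rat 3 was left out. Of the 5 fibroblast markers 3 also fell, the collagens Col1a1, Col1a2 and Col3a1, and the summed signal of that list was 21096 to 22134 in diabetic and 41388 to 44913 in normal diaphragm. The other 2 fibroblast markers, Dcn and Pdgfra, overlapped between the groups and did not pass. Their ratios of means were 0.932 and 0.785 (limma, adjusted p = 0.677 and 0.331). Of the markers of vessels, Kdr of the endothelium rose and Acta2 of smooth muscle fell, and each lost the call whenever any 1 of the 6 arrays was left out. No marker of adipocytes, macrophages and leukocytes, red blood cells, nerve or mesothelium passed the test, with 2, 5, 2, 2 and 3 of them above the filter. Of all 9519 probe sets tested, 3.48% fell and 3.3% rose (limma, adjusted p under 0.05). In whole muscle, fewer cells of a type and less RNA per cell cannot be told apart.

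The pyruvate dehydrogenase complex sits in the mitochondrial matrix and turns pyruvate into acetyl-CoA, a step that animals cannot run backwards, so it commits carbon from glucose to oxidation. E1 removes carbon dioxide from pyruvate with the help of thiamine diphosphate, E2 passes the acetyl group to coenzyme A on a lipoyl arm, and E3 reoxidizes that arm. The kinases phosphorylate the E1 alpha subunit and switch the complex off, and the phosphatases remove the phosphate and switch it on again. Pdk4 is known in heart and skeletal muscle as the kinase that increases with starvation, diabetes and fatty acid supply.

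The array signals of the kinases were all higher on average in diabetic than in normal diaphragm, and those of the 4 subunits analysed were all lower. Across probe sets that passed the filter, 4 of 4 for kinases had a positive log2 difference, 5 of 5 for subunits had a negative one, and both phosphatases had a negative one, whereas 50.4% of all 9519 probe sets tested were above 0 and 49.6% were below 0. These kinase and subunit probe sets stand for 3 and 4 genes, since Pdk1 and Pdha1 each have 2, and the Pdk2 difference was only 0.07. None of the 11 probe sets passed the limma test at an adjusted p under 0.05 (6.78% of all probe sets passed, 3.3% higher and 3.48% lower in diabetic diaphragm). By the unadjusted p, 4 of the 11 were under 0.05, Pdk4 higher and Pdp1, Pdhb and Pdhx lower, against 23.9% of all probe sets tested (12.2% higher and 11.7% lower). The groups did not overlap for 2 probe sets that were higher, of Pdk4 and Pdk1, and for 2 that were lower, of Pdp1 and Pdhx. Among all probe sets tested 15.2% were higher and 14.4% were lower without overlap, so such separation of 3 arrays from 3 was common on these arrays. Pdk4 alone also had a ratio of means of at least 1.5 without overlap, which held for 5.86% of all probe sets tested on the higher side and, as its reciprocal, for 5.84% on the lower side.

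**Figure D1:**
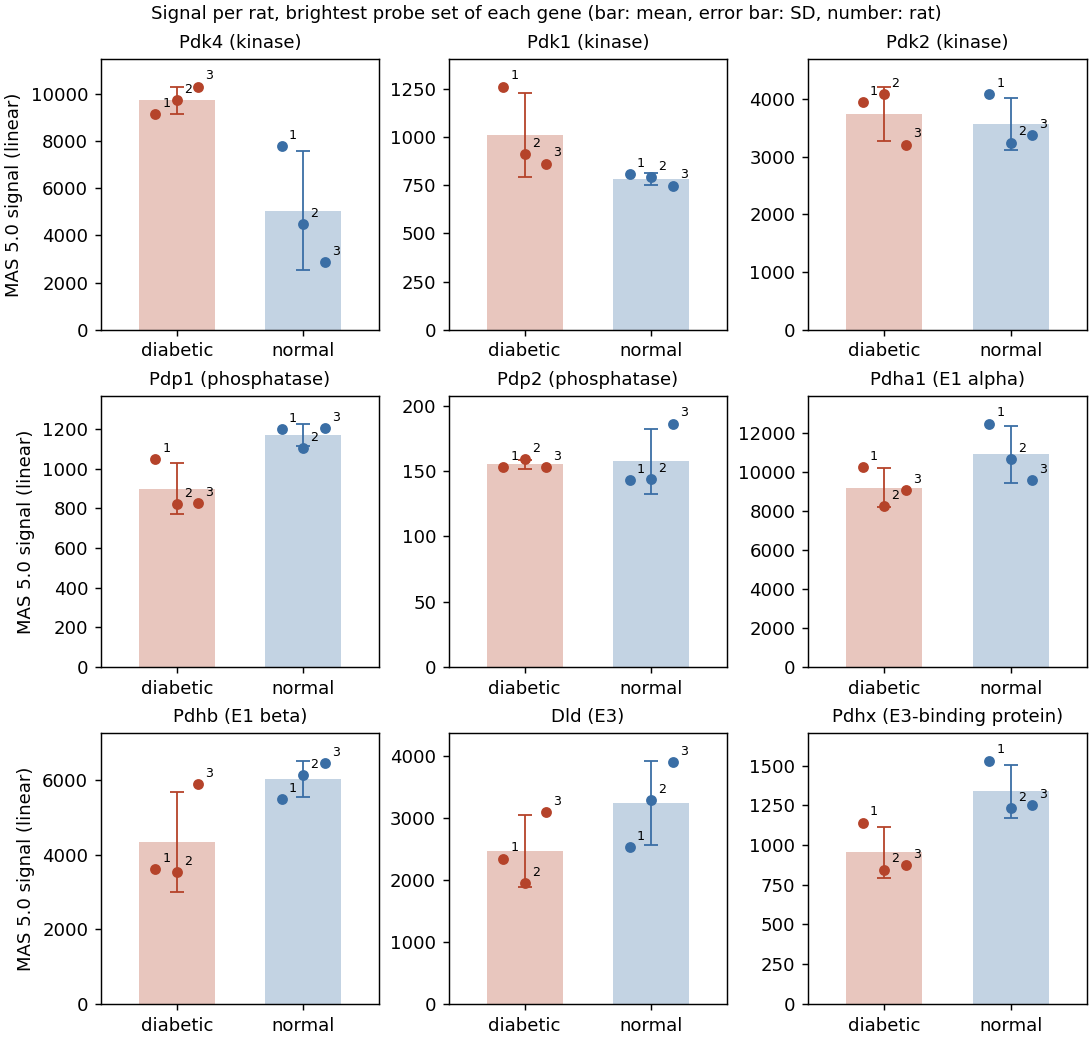
Signal of the brightest probe set of each of the 9 genes, with 1 point for each rat, the replicate number beside it, bars for the mean and error bars for the SD (n = 3 per group, linear axis from 0 in MAS 5.0 signal). The 3 diabetic rats lie above all normal rats for Pdk4 and Pdk1 and below them for Pdp1 and Pdhx, and the normal rats are widely spread for Pdk4.

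The promoters of Pdk4 and Pdhb, the kinase and the subunit with the largest log2 differences, are shown as the 250 bases before the RefSeq start of each gene on the build GRCr8, 5′ to 3′ on the gene's own strand, with motif matches in capitals. Pdk4 lies on the minus strand at chr4:34568330-34568579 and Pdhb on the plus strand at chr15:19182539-19182788.
Pdk4: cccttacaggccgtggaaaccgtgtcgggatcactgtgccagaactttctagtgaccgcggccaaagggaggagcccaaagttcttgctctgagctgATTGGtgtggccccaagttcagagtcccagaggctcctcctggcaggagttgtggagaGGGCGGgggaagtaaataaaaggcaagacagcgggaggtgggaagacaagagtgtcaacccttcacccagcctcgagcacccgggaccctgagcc
Pdhb: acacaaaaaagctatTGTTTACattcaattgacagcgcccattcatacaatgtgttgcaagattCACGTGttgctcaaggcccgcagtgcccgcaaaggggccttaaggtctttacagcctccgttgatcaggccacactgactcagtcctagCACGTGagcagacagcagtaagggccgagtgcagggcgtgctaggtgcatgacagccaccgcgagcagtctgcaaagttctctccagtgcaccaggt
The letters searched on both strands were TGTTTAC (the FoxO core), AAGGTCA (bound by estrogen-related receptors), CCAAT (the CCAAT box), GGGCGG (the GC box), CACGTG (the E-box) and TATAAA (the TATA box). Pdk4 held a CCAAT box on the opposite strand 153 bases before the start and a GC box 95 bases before it. Such letters were common, in 34% and 30.5% of 33469 RefSeq promoters of the same length. Pdhb held the FoxO core 235 bases before the start and E-boxes 186 and 97 bases before it, which 3.21% and 5.59% of promoters held. Of 8 genes of the complex with a promoter sequence, the FoxO core was found in 1 and the letters bound by estrogen-related receptors in 0. A match describes the letters only and is no evidence of a bound site. Absence of a match covers only these exact letters in these 250 bases.

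Pdk4 showed the largest difference among the kinases. Its signal was 9144, 9722 and 10301 in diabetic rats 1 to 3, against 7790.5, 4462 and 2854 in normal rats 1 to 3. The diabetic rats lay close together at a high level, and the normal rats were spread widely below them, normal rat 1 being the nearest. The highest diabetic signal was 1.13 times the lowest. The means were 9723 ± 579 (SD, n = 3) in diabetic and 5035 ± 2518 (SD, n = 3) in normal diaphragm, a ratio of 1.93. The log2 difference was 1.07 with a standard error of 0.29 and a 95% interval of 0.43 to 1.71, and the adjusted p of 0.0544 (limma) missed the threshold. The result leaned on single normal rats, since the ratio was 2.66 and the adjusted p 0.0084 without normal rat 1, and the ratio was 1.59 and the adjusted p 0.11 without normal rat 3. Without diabetic rat 3, whose spiked controls stood apart, the log2 difference of Pdk4 was 1.03 with an adjusted p of 0.131.

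Pdk1 is a kinase known as a target of the hypoxia factor HIF-1. Its brighter probe set had signals of 1262, 911 and 862 in diabetic rats, against 807, 791 and 748.5 in normal rats. The groups did not overlap, but diabetic rats 2 and 3 were near the normal rats and diabetic rat 1 stood well above both. The ratio of means was 1.29, and the log2 difference was 0.35 with a standard error of 0.18 and a 95% interval of -0.04 to 0.74 (limma, adjusted p = 0.258). A dimmer probe set of Pdk1 had signals of 616, 561 and 663 in diabetic rats and 563, 415.5 and 570.5 in normal rats. These groups overlapped, with a log2 difference of 0.26 (limma, adjusted p = 0.411).

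Pdk2 is the kinase found most widely across tissues. Its signal was 3937, 4082 and 3206 in diabetic rats, against 4079, 3241 and 3375 in normal rats. The highest values of both groups were nearly the same and the groups overlapped fully. The log2 difference was 0.07 with a standard error of 0.16 and a 95% interval of -0.28 to 0.42, which in fold terms runs from 0.823 to 1.34 (limma, adjusted p = 0.831). The other probe set of Pdk2, which did not pass the filter, ranged from 7.5 to 217.9 in diabetic and from 7.3 to 203 in normal rats, too erratic to follow. Pdk3, the remaining kinase of the family and outside the genes chosen, was also below the filter at 62.6 to 78.9 in diabetic and 68.9 to 100.9 in normal rats.

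One phosphatase was lower in every diabetic rat and the other was not separated. Pdp1, the calcium-activated phosphatase of muscle, had signals of 1048, 821 and 828 in diabetic rats, against 1201.5, 1105 and 1207 in normal rats. All diabetic rats lay below all normal rats, and diabetic rat 1 came nearest to them. The ratio of means was 0.768, and the log2 difference was -0.39 with a standard error of 0.16 (limma, unadjusted p = 0.0327, adjusted p = 0.168). Pdp2, the phosphatase that in rat heart and kidney is known to decline with starvation, had signals of 153, 159 and 153 in diabetic rats and 143, 144 and 186 in normal rats. Diabetic values fell inside the normal range, near the filter level, and the log2 difference was -0.01 with a 95% interval of -0.49 to 0.47 (limma, adjusted p = 0.981). Its sign changed when normal rat 3 was left out (0.11) and with array weights (0.04).

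The subunits of E1 were lower on average in diabetic diaphragm without passing the test. Pdha1 encodes E1 alpha, the subunit that the kinases phosphorylate, and its brighter probe set had signals of 10230.4, 8237 and 9045 in diabetic rats, against 12460.5, 10625 and 9587 in normal rats. Diabetic rat 1 lay inside the normal range, so the groups overlapped, and the log2 difference was -0.25 with a standard error of 0.15 (limma, adjusted p = 0.353). The other Pdha1 probe set had signals of 4164, 3877 and 3388 in diabetic rats, against 5130.5, 3896 and 6121 in normal rats. Diabetic rat 1 was again inside the normal range, with a log2 difference of -0.39 and an adjusted p of 0.224 (limma). Pdhb encodes E1 beta, and its signal was 3612, 3539 and 5893 in diabetic rats, against 5490.3, 6134 and 6452 in normal rats. Diabetic rats 1 and 2 were far below every normal rat, whereas diabetic rat 3 was among them. The ratio of means was 0.722, and the log2 difference was -0.51 with a standard error of 0.20 (limma, unadjusted p = 0.0283, adjusted p = 0.155). Without diabetic rat 3 the log2 difference of Pdhb was -0.75 and passed (limma, adjusted p = 0.0294).

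Dld encodes E3, which the complex shares with the 2-oxoglutarate and branched-chain dehydrogenases and with glycine cleavage. Its signal was 2349, 1950.3 and 3103 in diabetic rats, against 2538, 3297 and 3902 in normal rats. Diabetic rat 3 again lay inside the normal range, and the log2 difference was -0.40 with a standard error of 0.21 (limma, adjusted p = 0.276). Pdhx encodes the protein that ties E3 to the E2 core, and its signal was 1141, 845 and 874 in diabetic rats, against 1531, 1231 and 1251 in normal rats. No diabetic rat reached the lowest normal rat. The ratio of means was 0.713, and the log2 difference was -0.49 with a standard error of 0.17 (limma, unadjusted p = 0.0166, adjusted p = 0.119).

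**Figure D2:**
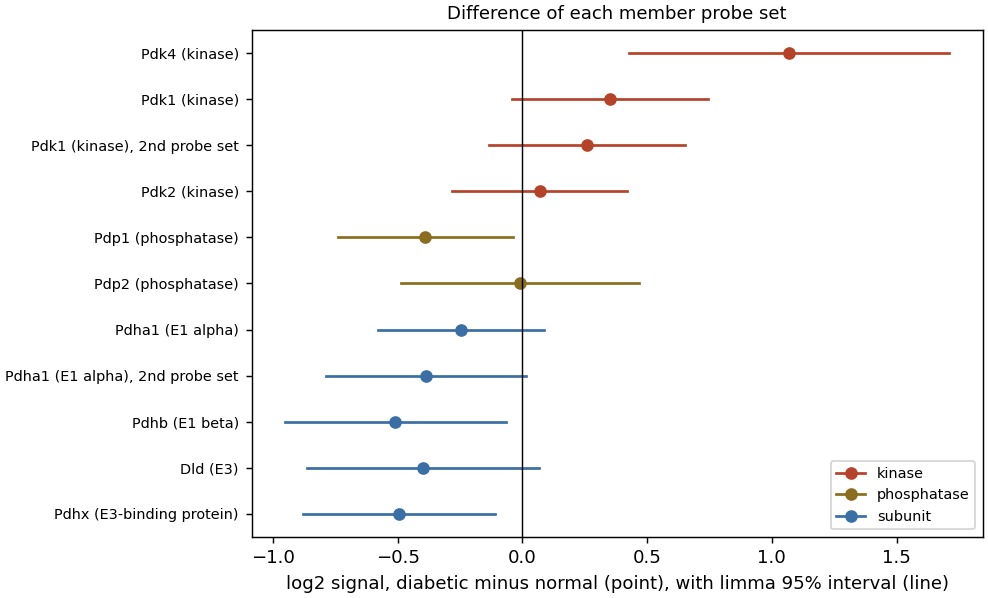
Log2 signal in diabetic minus normal diaphragm for the 11 probe sets that passed the filter (points), with limma 95% intervals (lines) and colors for kinases, phosphatases and subunits (n = 3 rats per group). The interval lies above 0 for Pdk4 and below 0 for Pdp1, Pdhb and Pdhx, and none of the 11 passed after adjustment over all probe sets tested.

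Kinases were then set against catalytic and structural subunits, taking the brightest probe set of each gene. The median log2 difference was 0.35 over the 3 kinase genes and -0.45 over the 4 subunit genes, against 0.00 over all probe sets tested, and the kinase median exceeded the subunit median by 0.80. The median of 3 kinases is the middle one, here Pdk1, so the size of the Pdk4 difference does not enter it. Computed on each array relative to the normal mean, the kinase median minus the subunit median was 1.02, 0.90 and 0.29 in diabetic rats 1 to 3, against 0.17, -0.05 and -0.08 in normal rats 1 to 3. All diabetic rats were above all normal rats, and diabetic rat 3 was the closest to them. In each diabetic rat the kinase median was the value of Pdk1, whose signal stood highest in diabetic rat 1. The pooled SD between rats of a group was 0.294. These values describe the genes chosen and carry no p.

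Within-array ratios of a pair of genes cancel any scaling of a whole array, and only their change between groups can be read, since probe sets differ in brightness. Of 6 planned ratios the 4 without Dlat were computed. The ratio of Pdk4 to Pdha1 was 0.894, 1.18 and 1.14 in diabetic rats, against 0.625, 0.420 and 0.298 in normal rats. The groups were clearly separated, with a log2 difference of 1.31 or 2.49-fold (2-sided exact permutation test, p = 0.1, adjusted p = 0.133 over the 4 ratios). The ratio of Pdk4 to Pdk2 was 2.32, 2.38 and 3.21 in diabetic rats, against 1.91, 1.38 and 0.846 in normal rats, 2.00-fold higher without overlap (exact permutation test, p = 0.1). Normal rat 1 came nearest to the diabetic rats in both ratios. The ratio of Pdk2 to Pdha1 was 0.385, 0.496 and 0.354 in diabetic rats, against 0.327, 0.305 and 0.352 in normal rats, 1.24-fold higher (exact permutation test, p = 0.1). These groups only just failed to overlap, through diabetic rat 3 and normal rat 3. With the mean over all probe sets of a gene, which brings in the erratic second probe set of Pdk2, both ratios with Pdk2 overlapped between the groups (exact permutation test, p = 0.6 for each). The ratio of Pdhb to Pdha1 was 0.353, 0.430 and 0.652 in diabetic rats and 0.441, 0.577 and 0.673 in normal rats, and the groups overlapped (log2 difference -0.26, exact permutation test, p = 0.4). With 3 rats against 3, the smallest p this test can give is 0.1.

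**Figure D3:**
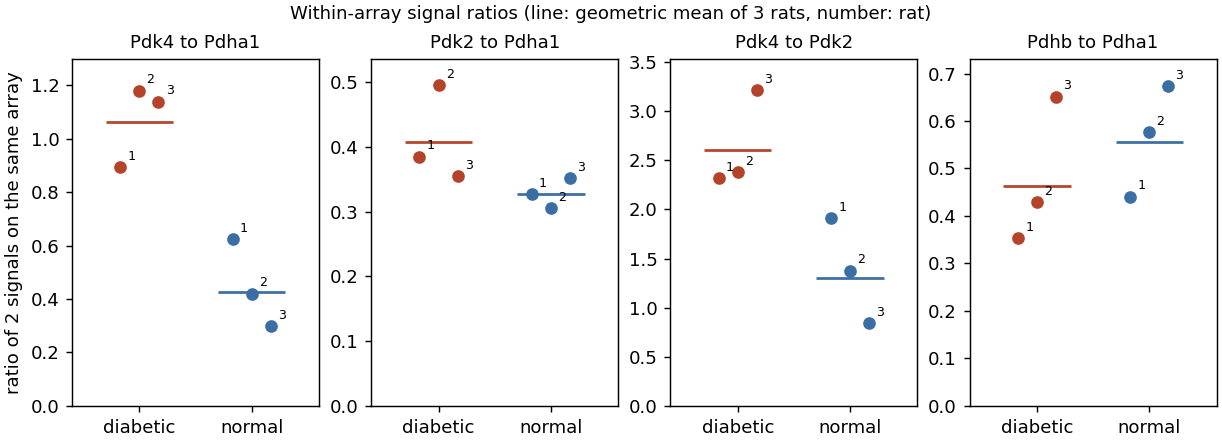
Ratio of 2 signals on the same array for 4 pairs of genes, with 1 point for each rat, the replicate number beside it and a line at the geometric mean of the 3 rats of a group (linear axis from 0, no unit). Diabetic rats lie above normal rats in the ratios of Pdk4 to Pdha1 and to Pdk2, narrowly so for Pdk2 to Pdha1, and the groups overlap for Pdhb to Pdha1.

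On these 6 arrays the subunits followed one another from rat to rat in pairs, not as a whole. Pdhb and Dld were highest in normal rat 3 and in diabetic rat 3, whose spiked controls stood apart. Their log2 deviations from the group means correlated at r = 0.84 over the 6 arrays. The brighter Pdha1 probe set and Pdhx were highest in diabetic rat 1 and in normal rat 1, with r = 0.89, whereas the dimmer Pdha1 probe set was highest in diabetic rat 1 and in normal rat 3. Between these pairs the correlations were all negative, from -0.44 for Pdhb and Pdhx to -0.24 for Pdha1 and Pdhb. Pdhx also followed Pdk1 (r = 0.84) and Pdp1 (r = 0.86), and Pdk2 ran against Dld (r = -0.91). These are descriptions over 6 arrays, picked from all pairs of the 9 genes after the values were seen, and none was tested. With group means removed, 4 residual degrees of freedom remain, so the weak correlations between the pairs carry little weight. The probe sets also share each array's RNA and hybridization.

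The normal rats were spread most widely for Pdk4 among the 11 probe sets tested, with a highest signal 2.73 times the lowest, against 1.57 times or less for the others. The genes whose log2 signals over the 6 arrays were most like those of Pdk4, among 8090 probe sets with 1 named gene, were Aprt (r = 0.994), Cytl1 (r = 0.991) and Plin4 (r = 0.990). Plin4, a lipid droplet coat protein of fat and muscle, had signals of 7119, 7098 and 8589 in diabetic rats, against 6736, 4516 and 3269 in normal rats. These 3 genes were picked for likeness over these same 6 arrays, so a shared ranking of rats and direction follow largely from that choice. The log2 difference of Plin4 was 0.71 and did not pass (limma, adjusted p = 0.0987). Cytl1, a small secreted cytokine-like protein, had a log2 difference of 0.70 (limma, adjusted p = 0.104), and Aprt, the enzyme that salvages adenine, one of 0.21 (limma, adjusted p = 0.415).

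Genes that respond to fasting and fatty acids in muscle were described as a list of 19, of which 18 were analysed here and above the filter. One of these, Acot1, passed the filter only through the diabetic rats and is left out of the counts of genes that rose or fell. Of the other 17 genes 3 rose and none fell (3.3% of all probe sets tested rose and 3.48% fell), with a median log2 difference of 0.34 against 0.00 over all probe sets tested. Acot1, a cytosolic acyl-CoA thioesterase, had signals of 404, 686 and 730 in diabetic rats, against 15.6, 47.5 and 3.1 in normal rats. Its normal signals were all below the filter level, so no fold is given. Trim63, a muscle ubiquitin ligase, rose with a log2 difference of 1.82 (limma, adjusted p = 0.0048). Fbxo32, another ubiquitin ligase of wasting muscle, rose with one of 1.74 and Klf15, a transcription factor of fasting, with one of 0.87 (limma, adjusted p = 0.0237 and 0.0287). When 1 array was left out, the call of Fbxo32 was kept only without diabetic rat 3 or normal rat 1 and that of Klf15 only without normal rat 1, and the ratio of means of Fbxo32 was 3.07, or 4.86 without normal rat 1. Acot1, Trim63 and Fbxo32 were selected by the study on these same arrays, so their counts are not independent evidence of direction.

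The ranking of the normal rats seen for Pdk4, a pattern noticed after the values were seen, was frequent in this list. Normal rat 1 was the highest of the 3 for 12 of the 18 genes (66.7%, against 27.4% of all probe sets tested), and normal rat 3 was the lowest for 15 (83.3%, against 35.0%). Unlike above, Acot1 is counted here. Its normal signals were all below the filter level, and it is among the 15 genes but not among the 12. The full ranking, with rat 1 above rat 2 and rat 2 above rat 3, held for 11 of the 18 genes (61.1%), against 15.0% of all probe sets tested. The 18 genes were read on the same 3 normal rats, so they are not independent observations of this ranking. Trim63 was one of them, with signals of 8704, 6643 and 9292 in diabetic rats and 3231, 2652 and 1419.5 in normal rats. Angptl4, a secreted inhibitor of lipoprotein lipase and a target of fatty acid receptors, had signals of 3902, 2724 and 5688 in diabetic rats and 2399.8, 2063 and 253.5 in normal rats. Normal rats 1 and 2 were close together and normal rat 3 was far below them, and the log2 difference of 1.86 did not pass (limma, adjusted p = 0.135). Angptl4 was chosen for mention after its values were seen.

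**Figure D4:**
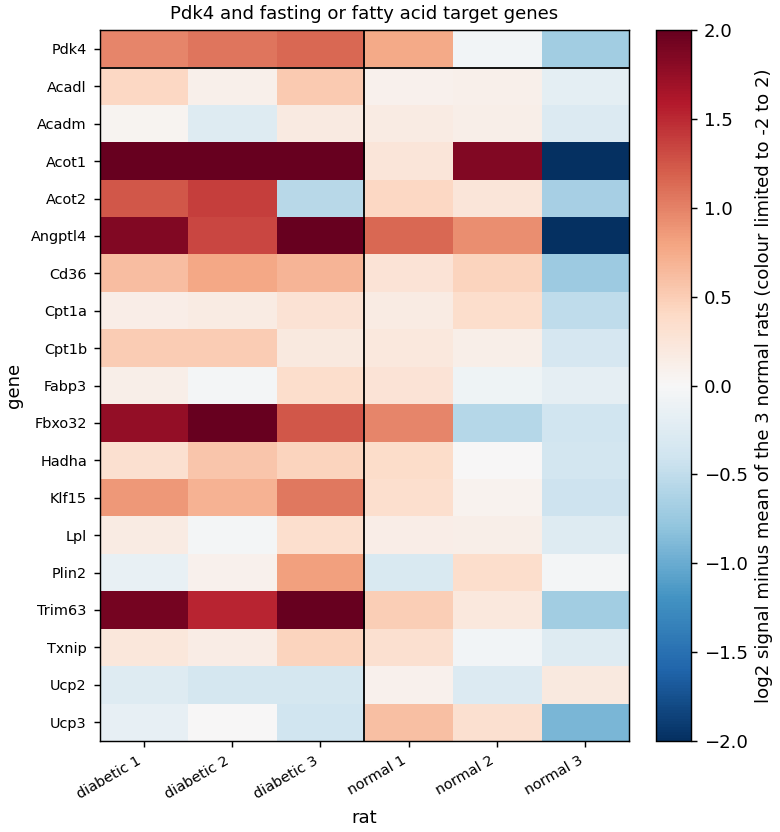
Log2 signal of Pdk4 (top row) and of the 18 fasting and fatty acid target genes above the filter in each rat, relative to the mean of the 3 normal rats, with color limited to the range from -2 to 2. Diabetic rats are the 3 columns on the left, and in the normal columns on the right, normal rat 3 was the lowest of the normal rats for 15 of the 18 genes. Acot1, below the filter level in normal rats, is among the 15.

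Of the known regulators of kinase transcription, 1 passed the test. Of 16 genes 12 were analysed here and 9 of them were above the filter, of which 1 rose, none fell and 8 did not pass, with a median log2 difference of 0.19. Over all probe sets tested, 3.3% rose and 3.48% fell. By the unadjusted p, 4 of the 9 genes were higher and 0 lower at under 0.05, against 12.2% and 11.7% of all probe sets tested. Besides Foxo3 these were Cebpb, Foxo1 and Ppard, mentioned after their values were seen. Their log2 differences of 0.72, 1.07 and 0.54 did not pass (limma, adjusted p = 0.0519, 0.0934 and 0.132). Foxo3, a transcription factor that insulin signaling keeps out of the nucleus, had signals of 1727, 1407 and 1724 in diabetic rats, against 799, 918 and 660 in normal rats. All diabetic rats were far above the normal rats, with a ratio of 2.04 and a log2 difference of 1.04 (limma, adjusted p = 0.0078), and the call held whichever array was left out. The other probe sets of Foxo3 were below the filter and overlapped between the groups, with ratios of means of 0.733 and 1.15. In the 250 bases searched, the exact letters of the FoxO core, bound by the FoxO family, stood before Pdhb and not before Pdk4. Variant letters and bases farther upstream were not searched, and an action of Foxo3 on either gene was not tested. The signals of Ppara, Ppargc1a and Rxra, a fatty acid receptor, a mitochondrial coactivator and a receptor partner, were below the filter.

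Genes that bring pyruvate to the complex or divert it included 4 that fell in diabetic diaphragm. Of 13 genes 10 were analysed here and above the filter, none rose and 6 did not pass, with a median log2 difference of -0.46. Over all probe sets tested, 3.48% fell and 3.3% rose. Slc16a3, which exports lactate from glycolytic fibers, fell most, with signals of 371, 236 and 154 in diabetic rats, against 629.9, 769 and 1445 in normal rats. Its log2 difference was -1.90 (limma, adjusted p = 0.0118). Ldha, the lactate dehydrogenase subunit of glycolytic muscle, had signals of 8675, 8476 and 7039 in diabetic rats, against 16311, 14234 and 18541 in normal rats. Neither gene showed any overlap of the groups, and the log2 difference of Ldha was -1.02 (limma, adjusted p = 0.0046). Gpt, the aminotransferase that links pyruvate to alanine, fell by 0.94 on the log2 scale (limma, adjusted p = 0.0196). Mpc1, one of the pair of proteins that form the mitochondrial pyruvate carrier, had signals of 7743, 9348 and 8954 in diabetic rats, against 13585, 12629 and 13528 in normal rats. All diabetic rats lay well below the normal rats, and the log2 difference was -0.61 (limma, adjusted p = 0.0227). Its partner Mpc2, mentioned after its values were seen, had a log2 difference of -0.55 that did not pass (limma, adjusted p = 0.109). When 1 array was left out, the call of Mpc1 was kept only without diabetic rat 2 or 3 and that of Gpt only without diabetic rat 1 or normal rat 3, and those of Ldha and Slc16a3 were kept in all 6 fits. Ldha and Slc16a3 were also picked by the study on these arrays.

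No gene passed in the lists of cofactors, related systems and acetyl-CoA, whereas 6.78% of all probe sets tested passed in either direction. With so few genes in each list, an absence of calls does not stand out from that share. Of 14 genes for its lipoyl, thiamine and coenzyme A cofactors 8 were analysed here and 7 of them were above the filter, and none passed, with a median log2 difference of 0.18. The related systems were the 2-oxoglutarate, 2-oxoadipate and branched-chain dehydrogenases, with the kinase and phosphatase of the last. The glycine cleavage system, which shares the lipoyl arm and E3, was also among them. Of 10 genes of these systems 9 were above the filter and none passed, with a median of -0.24. Of 9 genes that make, use or export acetyl-CoA 8 were above the filter and none passed, with a median of -0.08. In the same order, 2, 4 and 1 of these genes had an unadjusted p under 0.05, against 23.9% of all probe sets tested. The mean of Pank2, a cofactor gene, was below the filter level in diabetic rats, and that of Dhtkd1, of the related systems, in normal rats. Without these genes the medians of the first 2 lists were 0.24 and -0.31.

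The subunits of the complex were set beside other mitochondrial genes, most of the citric acid cycle and respiratory chain, with the outer membrane channel Vdac1, the transcription factor Tfam and the chaperone Hspd1. Of 17 such genes 16 were analysed here and above the filter. Of these, 15 had a log2 difference below 0 (all but Tfam), against 49.6% of all probe sets tested. By the test 2 fell and none rose, against 3.48% and 3.3% of all probe sets tested. The median of the list was -0.26, against -0.45 for the 4 subunit genes. Idh3a, a subunit of isocitrate dehydrogenase, fell by 0.86 and Ndufs1, a subunit of respiratory complex I, fell by 0.63 on the log2 scale (limma, adjusted p = 0.0309 and 0.0208). When 1 array was left out, the call of Idh3a was kept only without diabetic rat 1 or normal rat 2 and that of Ndufs1 only without diabetic rat 1 or normal rat 3. The lower level of subunits was thus shared in sign by most of these genes, and its excess over them was not tested. The 3 muscle markers and the 3 collagens of the fibroblast list named above also fell, and their part in the lower signals of the complex was not tested.

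**Figure D5:**
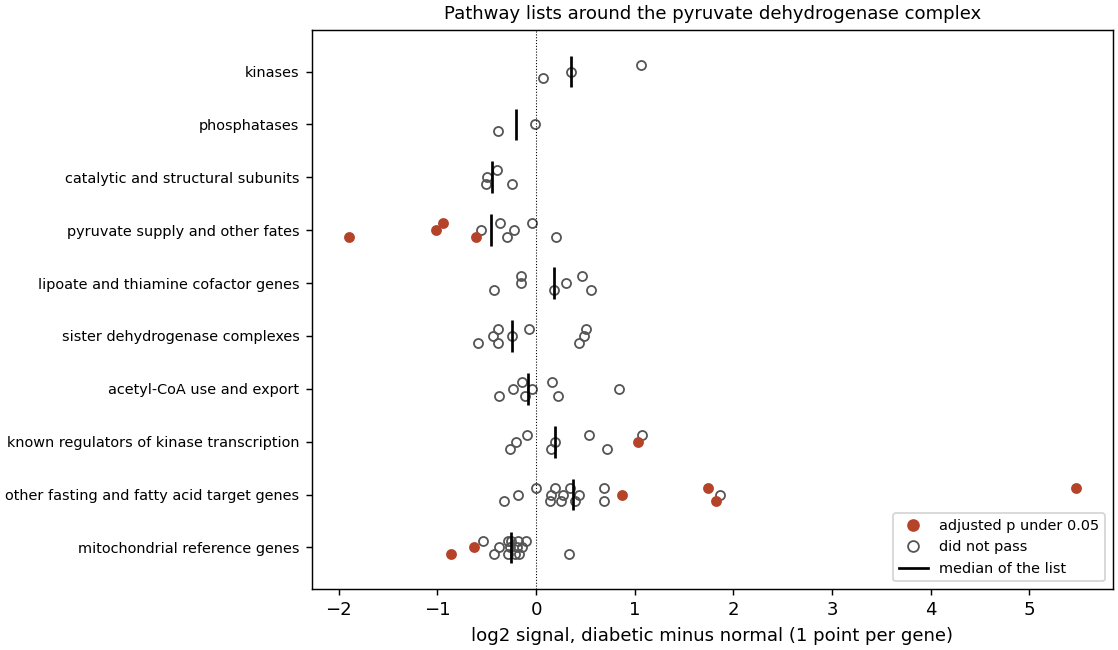
Log2 signal in diabetic minus normal diaphragm for genes around the complex, with 1 point per gene above the filter, filled where the limma adjusted p was under 0.05, and a vertical line at the median of each list. Points of kinases lie right of 0 and those of subunits left of 0, all unfilled, the point farthest right is Acot1, below the filter level in normal rats, and filled points stand only in the lists of pyruvate supply, regulators, fasting targets and mitochondrial genes.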

How the data were processed

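The deposited values are MAS 5.0 signals, intensities on a linear scale that the authors made from Affymetrix rat expression arrays, 1 per rat, and scaled by array (trimmed mean 500.2 on each). No source used here gives the MAS 5.0 settings, and presence calls were not used. The 136 values below 1 were replaced by 1 before the log2 transform. Control probe sets (57) were dropped, as was any whose mean did not exceed the 40th percentile (105.8). limma 3.58.1, run in R 4.3.3, was fitted to the remaining 9519 (lmFit, then eBayes with a trend), with Benjamini-Hochberg adjustment over all of them and an adjusted p under 0.05 as the threshold. The 6 arrays leave 4 residual degrees of freedom, which limits precision. Ratios of means are ratios of linear group mean signals. Folds of the within-array ratios and the fold interval of Pdk2 are log2 values turned back to the linear scale. The procedure was tested on simulated data. Every column was mapped to a rat through its title (0 columns unused).

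Names came from the platform's annotation (12783 with 1 gene, 312 with several, 2771 with none), and a gene was represented by its brightest probe set. All members are named, with at most 4 genes per list that passed and the 3 genes most like Pdk4. The same search for Dlat could not be made. The members and lists were chosen with earlier results of these data known. Promoters are RefSeq sequences of GRCr8, matched by symbol for 8 of the 10 members.

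Replicate numbers are shared between groups, but same-numbered rats did not deviate together (r = 0.098, -0.195 and -0.068), so they were not paired. Alternatives changed the normalization, offset, filter, variance prior, array weights, block, test and probe set rule, and left out each array in turn.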

Additional observations from a re-analysis of the deposited data

How the results depend on the processing

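Of 167 log2 differences of the member probe sets under the alternatives, 165 kept their sign, and the 2 that reversed were those of Pdp2 with array weights (0.0437) and without normal replicate 3 (-0.0771 to 0.115 over the fits that left out 1 array). The number of member probe sets past the threshold, 0 as reported, was 1 with quantile normalization (Pdk4, log2 difference 1.10, limma adjusted p = 0.0418), with an offset of 64 (Pdk4, adjusted p = 0.0499), with a filter raised to the 60th percentile (Pdk4, adjusted p = 0.0488), and by a ratio of at least 1.5 with no overlap (Pdk4). It ranged from 0 to 1 when 1 array was left out, with Pdk4 passing without normal replicate 1 and Pdhb without diabetic replicate 3. Over its 15 alternatives Pdk4 passed in 4, with log2 differences of 0.72 to 1.44 and adjusted p of 0.0084 to 0.131. Over all probe sets, 314 were higher and 331 lower as reported, against 200 higher without a filter, 558 higher and 556 lower by the ratio rule, and 135 to 226 higher and 177 to 236 lower when 1 array was left out. With the replicate number as a block, 162 were higher, 170 were lower and 0 members passed (Pdk4, adjusted p = 0.0843), and only the rats numbered 1 correlated best with their own number. The kinase median minus the subunit median stayed between 0.567 and 0.964 under every alternative run, and the 4 within-array ratios kept their direction, but with all probe sets of each gene averaged the ratios of Pdk2 to Pdha1 and Pdk4 to Pdk2 had p = 0.6 (exact permutation test), against 0.1 as reported. The other 2 of 6 planned ratios, with Dlat, were not run. Arrays of 3 rats per group limit what can be called, and signals near the filter level, as for Pdp2, have little precision.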
